A study of Mus musculus with 2 samples.

Results

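The MHC class II genes and their transcriptional activator were described in sorted microglia of amyloid-bearing mice. The members were the 7 rows of the count table for *Cd74*, *H2-Aa*, *H2-Ab1*, *H2-Eb1*, *H2-DMa*, *H2-DMb1* and *Ciita*, of 32285 genes in all, and all 7 were found. PSAPP mice (APPswe/PS1δE9, a transgenic model of amyloid plaques) were gavaged daily with vehicle (VEH, methylcellulose in PBS) or lemborexant (LEM, a dual orexin receptor antagonist, 30 mg/kg/day) for 30 days, from 9 to 10 months of age. Mice of both treatments carried the transgenes, and the number of females and males was not given in the sources used here. Live CD45lo CD11b+ cells of cortex and hippocampus were sorted, and 5 mice were pooled into 1 library per treatment. With 1 library per treatment no test between treatments was possible, and no replicate check exists. All intervals below are exact 95% intervals that cover counting error only (Poisson for summed counts, Clopper-Pearson for shares of cells). Counts that gather in a few cells, as class II counts do, can spread more than such intervals show.

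Class II molecules present peptides from the endosomal route to CD4 T cells. *H2-Aa*, *H2-Ab1* and *H2-Eb1* encode chains that sit at the cell surface, *Cd74* encodes the invariant chain that guards the peptide groove on the way there, and *H2-DMa* and *H2-DMb1* encode the chains of DM, which exchanges peptides in endosomes. *Ciita* encodes the coactivator that switches the whole set on, most often under interferon gamma. In brain, border-associated macrophages (BAM) carry class II at rest, whereas microglia carry little until activated, and disease-associated microglia (DAM) around plaques are known to gain it.

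CIITA acts at class II promoters through factors bound to an X box and a Y box, so the promoters of the members were searched for both (GRCm38.p6, RefSeq; 4 of the 7 members were matched, and *Cd74*, *H2-Ab1* and *Ciita* are named only). The letters searched on both strands were CCAAT for the Y box, the class II X box consensus (its match is the run of capitals in *H2-DMb1*) and ACNGATG for the end of the X box, which lies inside it. The 150 bases before the start of *H2-Aa* (minus strand, chr17:34287824-34287973) and *H2-Eb1* (plus strand, chr17:34305717-34305866) are shown with the matching letters in capitals, since these genes carry the surface chains whose counts were followed. For *H2-DMb1* the 30 bases around its X box are shown (plus strand, chr17:34153085-34153114), because they lie inside the annotated gene.
H2-Aa: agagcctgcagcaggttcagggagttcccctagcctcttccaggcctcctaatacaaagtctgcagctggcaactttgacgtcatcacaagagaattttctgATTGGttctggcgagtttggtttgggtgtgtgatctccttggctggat
H2-Eb1: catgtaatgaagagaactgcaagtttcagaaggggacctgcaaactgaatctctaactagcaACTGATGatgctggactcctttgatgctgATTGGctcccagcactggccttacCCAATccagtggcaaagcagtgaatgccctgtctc
H2-DMb1: gaggtttaCCTAGTAACTGATGatgctagg

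All 3 stretches of 150 bases, that of *H2-DMb1* included, held a Y box, 48, 59 and 61 bases before the start of *H2-Aa*, *H2-Eb1* and *H2-DMb1*, and *H2-Eb1* held another at 35. The full X box was in *H2-DMb1*, 98 bases before the start, and its end was in *H2-Eb1*, at 88 bases. Both stretches of *H2-DMa*, listed with 2 starts (34122682-34122831 and 34125368-34125517), held none of these letters. They lie inside the annotated gene, and no stretch nearer its far end was searched. Nothing is read from this about X and Y boxes of *H2-DMa*. Boxes that differ from the searched letters would be missed. So nothing is read either from the lack of a full X box match in *H2-Aa* and *H2-Eb1*. In the same window of all 32851 promoters the Y box was in 24.5%, the end of the X box in 4.92% and the full X box in 0.0152%. A match is a description of letters and no evidence of binding. *H2-DMa* (34119541-34139101, plus strand), *H2-DMb1* (34153072-34160230, plus), *H2-Ab1* (34257689-34269419, plus), *H2-Aa* (34282744-34287823, minus) and *H2-Eb1* (34305867-34316674, plus) lie in this order on chromosome 17 (GRCm38, GENCODE M21), and *Ciita* on chromosome 16 (10480059-10528418, plus). *H2-DMa* overlaps *Brd2*, an antisense gene and a pseudogene on the other strand and another antisense gene on its own strand. *H2-Eb1* overlaps an antisense gene and *Ciita* the gene *Dexi*, both on the other strand. *Cd74* overlaps a microRNA gene on its own strand. Whether reads were shared was not tested.

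The VEH library held 18374 cells with 116229678 counts and the LEM library 24392 cells with 160752298 counts, at a median of 5971 and 6034 counts per cell. The counts are unique molecular identifiers from the 5′ end and so do not grow with gene length. The microglial genes *Ctss*, *C1qa*, *C1qb*, *Cx3cr1* and *P2ry12* were each found in 98.4% of cells or more, in both libraries. Cells were sorted into states by fixed marker gates on raw counts, none of which uses a member. The gates were choroid plexus, B, T or NK, neutrophil, dendritic, monocyte and BAM cells, and, among the remaining microglia, proliferating, interferon, DAM (at least 4 of *Cst7*, *Lpl*, *Itgax*, *Clec7a*, *Spp1*, *Gpnmb*, *Igf1* and *Csf1* detected), intermediate (1 to 3 of these 8) and marker-free (none) cells. No cell met the B, T or NK or neutrophil gates. The sort on CD45lo limits BAM and blood-derived cells, and 18 VEH and 51 LEM cells were BAM-gated (0.0980% and 0.209%).

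*Cd74* (chromosome 18, 60803848-60812652, plus strand) was the most abundant member. In CPM, the counts scaled to a library total of 1000000, *Cd74* was at 260.2 (257 to 263) in VEH and 243 (240.5 to 245) in LEM. *H2-Ab1* was at 57.3 and 49.2 CPM, *H2-Aa* at 52.6 and 48.5 CPM, and *H2-Eb1* at 33.1 and 32.2 CPM. The peptide-exchange genes were at higher CPM than the surface chains, with *H2-DMb1* at 110.4 and 94.1 CPM and *H2-DMa* at 90.9 and 66.1 CPM. *Ciita* had 57 counts in VEH and 104 in LEM. Ordered by CPM, the members ran *Cd74*, *H2-DMb1*, *H2-DMa*, *H2-Ab1*, *H2-Aa*, *H2-Eb1* and *Ciita* in both libraries, with *H2-Ab1* and *H2-Aa* as the closest neighbours (in LEM the intervals of 48.1 to 50.3 and 47.4 to 49.5 CPM overlapped).

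Abundance and spread over cells went apart. *H2-DMb1* was detected in 44.3% of VEH and 41.7% of LEM cells and *H2-DMa* in 33.3% and 28.5%, mostly as a single count (63.2% and 67.0% of *H2-DMb1* cells). *H2-Aa* was detected in 3.08% (2.83 to 3.34) of VEH and 2.44% (2.25 to 2.64) of LEM cells, and *H2-Eb1* in 2.22% and 1.70%. *Ciita* was detected in 46 VEH and 84 LEM cells, 0.250% and 0.344%. The 1% of cells with the most *H2-Eb1* held 92.3% of its counts in VEH and 96.7% in LEM, whereas the top 1% of cells for *H2-DMb1* held 8.34% and 8.02%. After each cell was thinned to 2000 counts, leaving out 1305 VEH and 1215 LEM cells of lower depth, the shares of cells with *H2-Aa* were 1.80% and 1.40% and those with *H2-DMb1* 18.4% and 16.6%.

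Choroid plexus-gated cells were set beside the other gates as a comparison for background. They had *P2ry12* at 2317 CPM in VEH and 2003 CPM in LEM, beside 4559 and 4399 CPM in marker-free cells, and whether this RNA is free RNA or comes from microglia caught with them was not tested. Counts of the members can come with this RNA, so these cells are no clean measure of background. *Cd74* was detected in 17.9% of the 39 VEH and 18.7% of the 134 LEM choroid plexus-gated cells (median depth 9154 and 8797.5 counts), beside 13.01% and 15.4% of marker-free cells (5629 and 5684 counts). *H2-DMb1* was in 48.7% and 38.1% of choroid plexus-gated cells, beside 41.5% and 38.2% of marker-free cells, and *H2-DMa* in 33.3% and 23.1%, beside 30.5% and 25.1%. After thinning, *Cd74* was in 7.89% and 9.45% of choroid plexus-gated and 5.87% and 6.92% of marker-free cells, *H2-DMb1* in 18.4% and 11.0% against 18.1% and 16.5%, and *H2-DMa* in 10.5% and 4.72% against 14.2% and 10.3%. The share of marker-free cells with *Cd74* thus did not exceed that of choroid plexus-gated cells. Since the latter hold microglial RNA, this does not tell whether the counts in marker-free cells are background. As levels, *H2-DMb1* was lower in choroid plexus-gated cells, at 70.3 CPM (45.9 to 103) in VEH and 60.9 CPM (47.8 to 76.5) in LEM, than in marker-free cells, at 107 and 90.3 CPM. *H2-DMa* was at 64.9 CPM (41.6 to 96.5) and 41.2 CPM (30.5 to 54.3) against 82.1 and 58.0 CPM, a difference beyond the counting interval in LEM alone. For the surface chains a positive cell was set at 3 or more counts over *H2-Aa*, *H2-Ab1* and *H2-Eb1* together. No VEH choroid plexus-gated cell reached it (0 of 39, which allows a share of up to 9.03%) and 1 of 134 LEM cells did (0.746%).

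Class II chains were held by very few cells. By this rule 520 VEH cells (2.83%) and 481 LEM cells (1.97%) were class II-positive. Cells with at least 40 chain counts numbered 88 in VEH and 110 in LEM, 0.479% and 0.451% of cells, and held 65.9% and 75.1% of all chain counts. At the other end 1387 VEH and 1712 LEM cells had 1 or 2 chain counts and held 9.79% and 9.44%. *Cd74* followed with a wider base, since cells of at least 40 chain counts held 44.9% and 48.5% of its counts. *Ciita* gathered in the same cells, with 30 of 57 VEH and 52 of 104 LEM counts there. *Ciita* was at 34.4 and 48.4 CPM in these cells against 0.120 and 0.262 CPM in cells without a chain count.

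**Figure D1:**
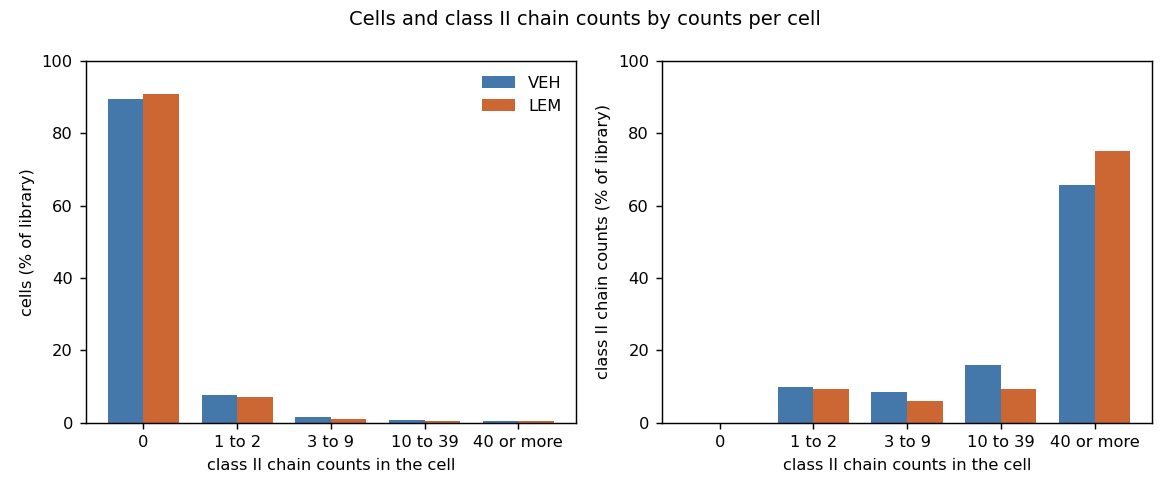
Bars give the percent of cells (left) and the percent of class II chain counts (right) of each library, by the number of class II chain counts in the cell. Cells with at least 40 chain counts are 0.479% of VEH and 0.451% of LEM cells and hold 65.9% and 75.1% of the chain counts.

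The cells with at least 40 chain counts fell into several gates. Of the 88 VEH cells 11 were BAM-gated, 31 DAM-gated, 23 intermediate and 17 marker-free, and of the 110 LEM cells 29, 30, 17 and 28. The 7 BAM markers summed were at 82.6 CPM in VEH and 58.6 CPM in LEM in the DAM-gated ones and at 377 and 584 CPM in the marker-free ones. In the DAM-gated ones *Folr2*, a folate receptor gene, made up 82.6 and 53.7 CPM of this, 6 of the 7 markers in VEH and 4 in LEM were at 0, and *Mrc1* was at 0 CPM in VEH and 2.44 CPM in LEM. The marker-free ones had *Mrc1* at 278 and 369 CPM, *Ms4a7*, also a macrophage gene, at 251 and 364 CPM and *Ccr2*, a monocyte gene, at 395 and 287 CPM. Of the 7 BAM markers, 4 in VEH and 2 in LEM were at 0 in these marker-free ones. In all BAM-gated cells the 7 markers summed were at 2202 and 2263 CPM. Over all marker-free cells *Mrc1* was at 2.64 and 2.23 CPM. *P2ry12* did not set these cells apart from other gates, since it was at 2162 and 1946 CPM in marker-free cells with at least 40 chain counts, 2460 and 2060 CPM in BAM-gated cells and 2317 and 2003 CPM in choroid plexus-gated cells. The 17 VEH and 28 LEM marker-free cells with at least 40 chain counts held 64.8% and 79.3% of the chain counts of the whole marker-free gate. Over all gates, BAM included, 67.0% of VEH and 74.5% of LEM cells with at least 40 chain counts held at least 1 of the 7 BAM markers, against 6.36% and 6.55% of cells with no chain count. The former were deeper (median 9946 and 9041 against 5839 and 5899 counts). More of them held both *Xist* and Y-linked counts (13.6% and 15.5% against 4.94% and 6.87%), and fewer were scored as doublets (4.55% and 2.73% against 9.53% and 9.54%). The part of depth and doublets in these shares was not tested. DAM-gated cells as a whole also held BAM markers more often than marker-free cells, 32.6% and 29.0% of them holding at least 1 against 5.46% and 5.51% (8.63% and 6.10% against 2.04% and 2.24% in thinned cells). Most of this was *Folr2*, in 31.3% and 27.6% of DAM-gated cells, while *Mrc1* was in 0.267% and 1.01%. The part of cells other than microglia in the class II values of these gates was not tested.

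The surface chains and *Cd74* were graded by state, and the DM genes far less. BAM-gated cells had the highest levels, with *H2-Aa* at 5004 CPM (4658 to 5369) in VEH and 4264 CPM (4075 to 4458) in LEM, and *Cd74* at 11493 and 10830 CPM. DAM-gated cells (374 VEH, 493 LEM) came next among the microglial gates, with *H2-Aa* at 469 and 305 CPM, *H2-Ab1* at 446 and 312 CPM, *H2-Eb1* at 213 and 134 CPM and *Cd74* at 2542 and 1947 CPM. In DAM-gated cells *Cd74* was detected in 93.0% and 92.5% of cells, far above its share in choroid plexus-gated cells. Interferon-gated cells had *H2-Aa* at 182 CPM in VEH and 53.5 CPM in LEM, and 4 VEH and 2 LEM cells of this gate had at least 40 chain counts. Intermediate cells had *H2-Aa* at 56.1 and 29.6 CPM, and proliferating cells had it at 18.6 and 39.5 CPM. Marker-free cells had *H2-Aa* at 15.8 and 21.0 CPM. These levels rest on few cells of each gate. In DAM-gated cells the 31 VEH and 30 LEM cells with at least 40 chain counts (8.29% and 6.09% of the gate) held 58.1% and 60.2% of its chain counts. In intermediate cells 23 and 17 such cells (0.613% and 0.285%) held 58.1% and 62.1%, and these had *Mrc1* at 104 and 113 CPM and *Ms4a7* at 194 and 101 CPM. *H2-DMb1*, by contrast, was at 165 and 137 CPM in DAM-gated and 107 and 90.3 CPM in marker-free cells. The monocyte gate (15 VEH, 12 LEM cells) and the dendritic gate (6 and 13) held at most 3 class II-positive cells in either library and are not read further.

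**Figure D2:**
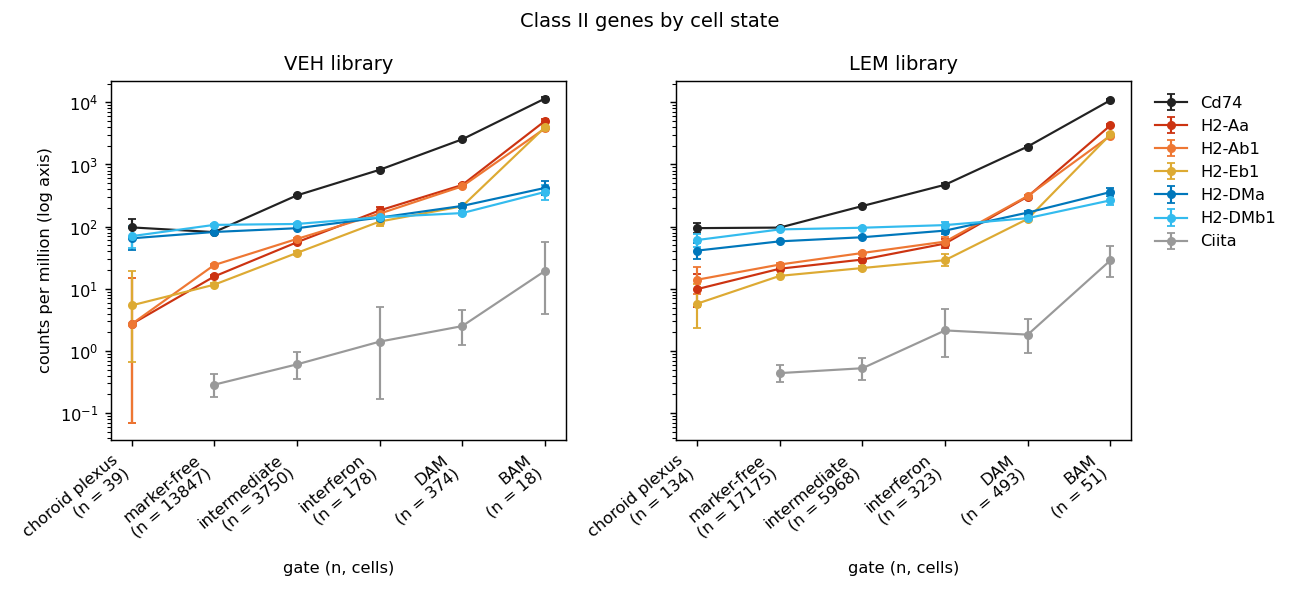
Points give CPM (log axis) of each member by gate in the VEH library (left) and the LEM library (right), with exact 95% Poisson intervals, and lines join the points of a gene. *Cd74* and the 3 surface chains climb from marker-free to DAM-gated to BAM-gated cells, *H2-DMa* and *H2-DMb1* stay within a narrower range, and *Ciita*, listed at 0 in choroid plexus-gated cells, has no point there.

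Each member was set against its level in marker-free cells of the same library, a comparison in which 13.1% of all genes tested in VEH and 12% in LEM were higher in DAM-gated cells by at least 0.5 on the log2 scale. *H2-Aa*, *H2-Eb1* and *Ciita* were found in under 1% of marker-free cells and passed the detection limit only through the DAM gate, so the members are given singly and nothing is read from how many were higher. *Cd74* was 31.1-fold higher in VEH and 20.2-fold in LEM. *H2-Aa* was 29.7-fold and 14.5-fold higher, *H2-Ab1* 18.5-fold and 12.7-fold and *H2-Eb1* 18.2-fold and 8.27-fold. *H2-DMa* was 2.62-fold and 2.90-fold higher and *H2-DMb1* 1.55-fold and 1.52-fold. *Ciita* had 11 counts in DAM-gated cells of each library, at 8.77-fold (log2 interval 1.95 to 4.23) and 4.16-fold (0.96 to 3.03) its marker-free level. The surface chains summed were higher by 4.45 in VEH and 3.60 in LEM on the log2 scale, and by 5.14 and 5.02 once all cells with any BAM marker were left out, a setting chosen after the data were seen, which also removes the DAM-gated cells with *Folr2*.

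The share of class II-positive cells climbed with each DAM marker detected. Among marker-free, intermediate and DAM-gated cells of VEH, the share of class II-positive cells was 0.729% at 0 markers, 2.01% at 1, 9.59% at 2, 26.0% at 3, 40.9% at 4, 60.3% at 5 and 66.7% at 6 or more. In LEM the shares were 0.472%, 0.921%, 4.70%, 12.6%, 32.7%, 40.8% and 58.0%. The LEM share was the lower of both at every number. The intervals, which cover counting error and not the spread between mice, did not overlap at 0, 1, 2, 3 and 5 markers. In female cells alone the order did not hold in every gate. The shares in LEM and VEH were 38.5% and 37.0% in DAM-gated, 2.28% and 3.09% in intermediate and 0.439% and 0.426% in marker-free female cells. Depth climbed as well, from a median of 5629 to 12768.5 counts per cell in VEH and from 5684 to 14435 in LEM, and in thinned cells the shares went from 0.260% to 26.2% in VEH and from 0.254% to 27.5% in LEM, with the LEM share lower at 0 to 5 markers and higher at 6 or more. The thinned VEH share was highest at 5 markers, at 30.9%, so the climb did not hold over its last step there. In CPM, which are scaled by depth, the summed chains were at 51.6 in VEH and 61.8 in LEM at 0 markers and at 1684 and 1735 at 6 or more. The climb was not even for each chain, since in LEM *H2-Aa* was at 49.4 CPM at 2 markers and 47.5 at 3, and *H2-Eb1* at 38.1 and 22.4. *Cd74* went from 81.7 to 3550 CPM in VEH and from 96.6 to 3533 CPM in LEM over the same range. At 3 markers *Cd74* was at 1162 CPM in VEH and 600.3 CPM in LEM, and at 6 or more the levels lay within counting error of each other. *H2-DMb1* went from 107 to 177 CPM and from 90.3 to 148 CPM.

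**Figure D3:**
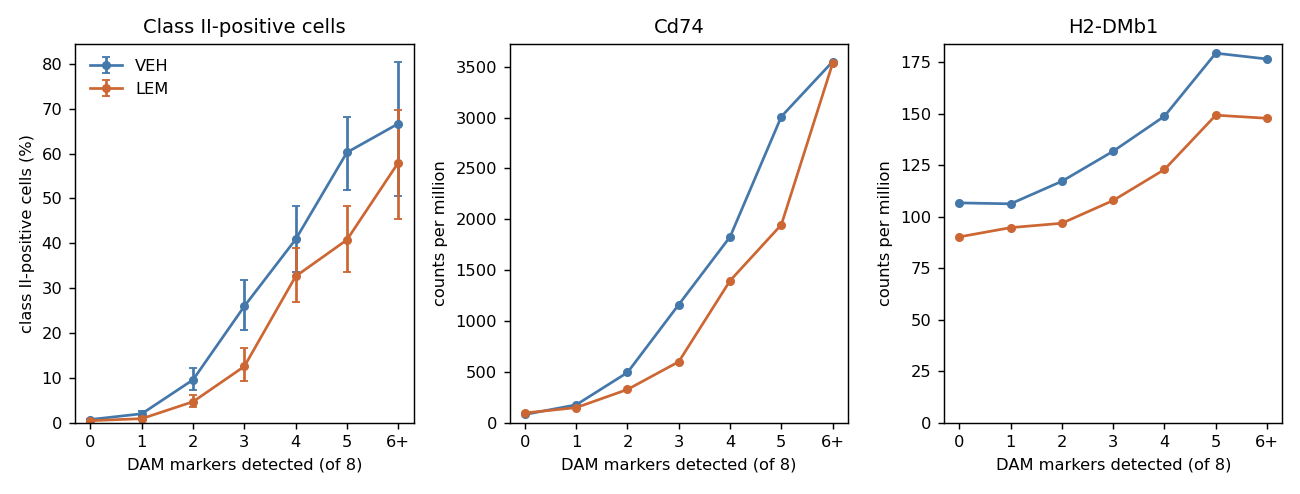
Percent of class II-positive cells with exact 95% intervals (left), *Cd74* (middle) and *H2-DMb1* (right, both in CPM) by the number of DAM markers detected in the cell, for VEH and LEM. All 3 are higher at 6 or more markers than at 0 (*H2-DMb1* at 177 against 107 CPM in VEH and 148 against 90.3 in LEM), and the LEM share of positive cells is below the VEH share throughout, from 0.472% against 0.729% at 0 markers to 58.0% against 66.7% at 6 or more.

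In microglia-gated cells, pairs of members were detected together in more cells than the product of their single shares. The excess over the product has a ceiling set by how common the more frequent gene is. This ceiling is lower for the common DM genes than for the rarer surface chains, so the excess is not ranked between pairs. Among 18296 VEH and 24182 LEM microglia-gated cells (all that met no gate of another cell type), 430 and 389 cells held both *H2-Aa* and *H2-Ab1*, 8.33 and 8.97 times the product of the single shares. For *H2-Aa* with *H2-Eb1* the excess was 25.4 and 30.1 times, and for *H2-Aa* with *Cd74* 4.89 and 4.26 times. Of *H2-Aa* cells, 90.9% (88.1 to 93.2) in VEH and 88.8% (85.8 to 91.3) in LEM held *Cd74*, 78.5% and 70.5% held *H2-Ab1* and 54.2% and 46.6% held *H2-Eb1*. The reverse shares were lower, since of *H2-Ab1* cells 24.9% and 20.5% held *H2-Aa* and 54.3% and 52.7% held *Cd74*. In DAM-gated cells 191 of 191 VEH and 191 of 192 LEM cells with *H2-Aa* held *Cd74*. *H2-DMa* and *H2-DMb1*, partners in 1 protein, were together in 19.3% and 14.9% of microglia-gated cells, 1.31 and 1.26 times the product. In DAM-gated cells, where the surface chains are more common, the excess was 1.42 and 1.51 times for *H2-Aa* with *H2-Ab1*. For the DM pair it was 1.08 and 1.09 times there. Cells of 1 library differ in depth. In cells thinned to 1 depth the excess was 15.3 and 19.4 times for *H2-Aa* with *H2-Ab1* and 1.26 and 1.24 times for the DM pair. Thinning makes each gene rarer and so raises the ceiling, and nothing is read from the larger value. The share of *H2-Aa* cells with *H2-Ab1* was lower after thinning, at 63.6% in VEH and 57.5% in LEM.

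Counts of a single chain were also found. *H2-Ab1* without *H2-Aa* or *H2-Eb1* was the most common pattern, in 1245 VEH (6.80%) and 1467 LEM cells (6.07%), beside 279 and 244 cells with all 3 chains. *H2-Aa* alone was in 100 and 150 cells. One such cell is not set apart from choroid plexus-gated cells by its chain count. *H2-Ab1* was also in 2.56% of VEH and 6.72% of LEM cells of that gate, with a counting interval of 3.12% to 12.4% in LEM. *H2-Aa* was in 2.56% and 1.49% of them. Whether these counts are background was not tested. As a set the cells with *H2-Ab1* alone were DAM-gated in 4.90% and 7.23%, against 0.676% and 0.798% of cells with no chain. They were also deeper (median 7336 and 7596 against 5833.5 and 5894 counts), and the DAM gate counts markers detected. Cells with 1 or 2 chain counts were scored as doublets in 13.7% and 14.4%, against 9.53% and 9.54% of those with none. The part of depth and doublets in the DAM shares was not tested. *Cd74* was detected in 38.2% and 39.7% of the cells with *H2-Ab1* alone, in 59.0% and 64.7% of those with *H2-Aa* alone, in 99.3% and 99.6% of those with all 3 chains and in 14.4% and 17.7% of those with none.

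The proportions between genes shifted with the amount of class II in a cell. In cells with 1 or 2 chain counts there were 0.111 (VEH) and 0.127 (LEM) *H2-Aa* counts per *H2-Ab1* count, and in cells with at least 40 there were 1.31 (1.25 to 1.37) and 1.34 (1.29 to 1.39). *H2-Eb1* went from 0.0567 and 0.0641 per *H2-Ab1* count to 0.905 and 0.949. *Cd74* went the other way at the top, from 2.61 and 3.12 counts per chain count in cells of 3 to 9 chain counts to 1.24 and 1.21 in cells of at least 40. By state, BAM-gated cells had 1.04 *H2-Eb1* counts per *H2-Ab1* count in each library and 0.900 and 1.06 *Cd74* counts per chain count, and DAM-gated cells had 0.477 and 0.428, and 2.26 and 2.59. In DAM-gated cells with at least 40 chain counts the values were 0.637 and 0.528 *H2-Eb1* counts per *H2-Ab1* count and 1.63 and 1.83 *Cd74* counts per chain count. The bins are cut by the chain counts themselves, so these values describe the cells and are not a test.

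**Figure D4:**
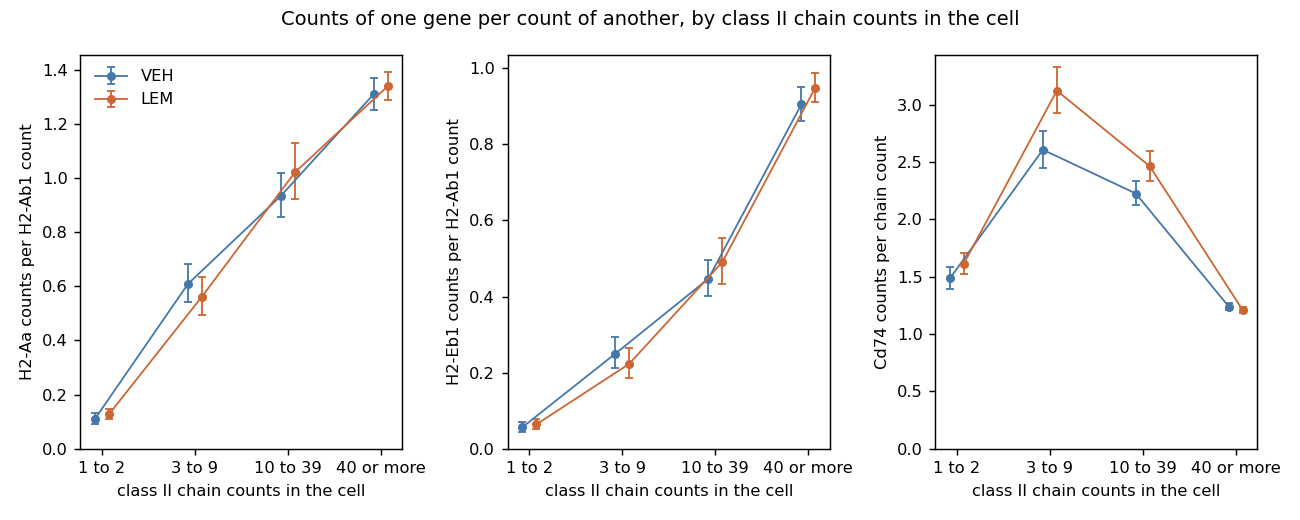
Counts of *H2-Aa* per *H2-Ab1* count (left), of *H2-Eb1* per *H2-Ab1* count (middle) and of *Cd74* per chain count (right), by the number of class II chain counts in the cell, for VEH and LEM with exact 95% intervals. The 2 proportions on the left climb in both libraries, to 1.31 and 1.34 for *H2-Aa* and to 0.905 and 0.949 for *H2-Eb1*, and *Cd74* per chain count is lowest, at 1.24 and 1.21, in cells of at least 40 chain counts.

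*Ciita* was too sparse to follow in single cells. Of its 46 VEH and 84 LEM cells, 30 (65.2%) and 46 (54.8%) were class II-positive, and 11 and 34 had no chain count. Conversely 5.77% and 9.56% of class II-positive cells held a *Ciita* count, against 0.0668% and 0.153% of cells with no chain count. *Ciita* had no count in choroid plexus-gated cells, where 0 of 39 VEH and 0 of 134 LEM cells allow shares of up to 9.03% and 2.72%. These limits lie above its shares of marker-free cells (0.101% and 0.204%), so nothing is read from the absence of counts.

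The genes most like the class II chains across cells were sought next. Pearson's r of log(1 + counts per 10000) with the chain sum was computed over microglia-gated cells for 11615 genes detected in at least 1% of cells, as a description, since genes of a cell share its depth and state. Ranked by the lower r of the libraries, the 10 highest non-members were *Cst7*, *Spp1*, *Cybb*, *Axl*, *Lpl*, *Baiap2l2*, *Lyz2*, *Ank*, *Etl4* and *Cd52*. *Cst7*, a cystatin, had r = 0.41 in VEH and 0.33 in LEM, and *Cd52*, the last of them, had 0.22 and 0.20. *Cst7*, *Spp1* and *Lpl* are among the DAM markers of the gate. *Cst7* was at 1439 and 1333 CPM in class II-positive microglia against 35.9 and 36.4 CPM in those without a chain count. *Cybb*, a subunit of the phagocyte NADPH oxidase, was at 33.1 and 39.4 CPM against 1.54 and 2.47 CPM, and *Axl*, a receptor for dying cells, at 107 and 120.5 CPM against 6.78 and 10.2 CPM. Among members, *Cd74* had r = 0.67 and 0.58, *H2-DMa* 0.20 and 0.18 (rank 19) and *H2-DMb1* 0.12 and 0.11 (rank 110).

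The totals of the members were compared between the libraries. None of the 6 members found in 1% of cells or more differed by 0.5 or more on the log2 scale, where 2.86% of 11910 genes did, so that a count of 0 says little about them. The log2 ratio of LEM over VEH was -0.10 for *Cd74*, -0.12 for *H2-Aa*, -0.22 for *H2-Ab1*, -0.04 (-0.10 to 0.02) for *H2-Eb1*, -0.46 (-0.50 to -0.42) for *H2-DMa* and -0.23 for *H2-DMb1*, and for *Ciita*, below that detection limit, 0.40 (-0.08 to 0.89). The median over the 6 members was -0.17 against 0.01 over all genes. Fewer cells of a state and less RNA per cell cannot be told apart in such totals.

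The total of the surface chains (-0.14, -0.17 to -0.11) was made up differently in the libraries. Its direction was not the same in every setting, since it was 0.013 in thinned cells and 0.066 in female cells. The share of class II-positive cells was lower in LEM, 1.97% (1.80 to 2.15) against 2.83% (2.60 to 3.08), a log2 ratio of -0.52 (-0.70 to -0.34). In thinned cells the shares were 0.876% and 1.25%. Chain counts in cells with under 40 were at 32.5 CPM in LEM against 49.1 CPM in VEH (-0.60), whereas in cells with at least 40 they were at 14598 and 12535 CPM (0.22). These sets are cut by the chain counts themselves, so both ratios are a description and no test. The upper set held 29 BAM-gated cells of 110 in LEM and 11 of 88 in VEH, at a median depth of 9041 and 9946 counts. BAM-gated cells held 22.2% of all chain counts in LEM and 11.9% in VEH, and DAM-gated cells 21.6% and 29.7%. Over microglia-gated cells alone the chains were at 97.6 CPM in LEM and 123 CPM in VEH (-0.33), and over those without any BAM marker at 46.3 and 64.3 CPM (-0.47). Within DAM-gated cells 3 of the 7 members were lower by at least 0.5, *H2-Aa* (-0.62), *H2-Ab1* (-0.52) and *H2-Eb1* (-0.67), where 17.8% of all genes differed by that much in either direction. Without cells holding any BAM marker these genes were at -0.53, -0.41 and -0.41. In female DAM-gated cells they were higher in LEM, at 0.56, 0.51 and 1.09, and in male cells at -0.68, -0.58 and -0.81. The share of DAM-gated cells that were class II-positive was 39.1% (34.8 to 43.6) in LEM and 51.6% (46.4 to 56.8) in VEH, and 13.4% and 22.1% in thinned cells. Intermediate cells were class II-positive in 2.20% and 4.88% and marker-free cells in 0.472% and 0.729%.

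Female and male cells, told apart by *Xist* and Y-linked counts, gave different values, and they come from different mice of each pool. Cells with both signals (981 VEH, 1764 LEM) or neither (2682 VEH, 2996 LEM) are in neither set. In male cells 1.81% (1.57 to 2.07) of LEM and 3.21% (2.86 to 3.60) of VEH cells were class II-positive, and in female cells 1.91% (1.63 to 2.23) and 1.97% (1.62 to 2.37). The difference between the libraries was thus present in male cells and within counting error in female cells, and the difference between the sexes was not tested. Among DAM-gated cells 42.2% of 206 LEM and 61.2% of 183 VEH male cells were positive, and 38.5% of 174 LEM and 37.0% of 119 VEH female cells. As summed chain CPM, DAM-gated male cells were at 930.0 in LEM and 1473 in VEH (-0.66) and female cells at 654 and 423 (0.63). Of the DAM-gated female cells, 8 of 174 in LEM and 2 of 119 in VEH had at least 40 chain counts, with 53.2% and 25.5% of the counts. Of the male ones 17 of 206 and 23 of 183 did, with 65.1% and 60.8%. In the other DAM-gated cells the chains were at 322 CPM in both female sets, and at 361 CPM in LEM and 671 CPM in VEH in male cells. The cut at 40 uses the chain counts themselves, so values on either side of it are a description and no test. In interferon-gated cells 1 or 2 cells of each sex and library held 40.6% to 79.6% of the chain counts, so their totals rest on those cells. In marker-free male cells the chains were higher in LEM, at 59.7 against 34.4 CPM (0.79), with 12 LEM and 5 VEH cells of at least 40 chain counts, and at 13.7 against 16.9 CPM without those cells.

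The DM genes moved in opposite directions in female and male cells. *H2-DMa* was at 46.9 CPM in VEH female, 119 in VEH male, 92.8 in LEM female and 45.2 in LEM male cells. The log2 ratio of LEM over VEH was 0.99 (0.91 to 1.07) in the female set and -1.39 (-1.45 to -1.33) in the male set. *H2-DMb1* was at 76.96, 132, 115 and 78.3 CPM in the same order, with ratios of 0.58 (0.52 to 0.65) and -0.76 (-0.81 to -0.71). *H2-DMa* was detected in 20.5% and 42.3% of VEH female and male cells and in 38.5% and 20.8% of LEM ones. The same held within marker-free cells, where *H2-DMa* had ratios of 1.04 and -1.45 and *H2-DMb1* of 0.62 and -0.78. By 0.5 or more in size, 5.75% of genes differed between the libraries in female and 5.22% in male cells, and 0.516% of 11055 genes with at least 100 counts in each of the 4 sets did so in opposite directions, *H2-DMa* and *H2-DMb1* among them. *H2-Aa*, *H2-Ab1* and *H2-Eb1*, on the same chromosome, had ratios of 0.11, -0.13 and 0.35 in female and -0.11, -0.16 and -0.06 in male cells, and *Cd74* of -0.02 and -0.08. The surface chains and *Cd74* were lower in female than in male cells of both libraries, by 0.34 to 0.53 on the log2 scale for the chain sum. This order of summed levels did not hold for shares of cells or in every gate. *H2-Ab1* was in 10.3% of female and 9.20% of male VEH cells and *H2-Eb1* in 1.75% and 1.46% of LEM cells, and in marker-free VEH cells the chains were at 63.4 CPM in female and 34.4 CPM in male cells. In choroid plexus-gated cells, not split by sex, *H2-DMa* was at 64.9 CPM in VEH and 41.2 CPM in LEM. The sets are pools of different mice, so sex, treatment and single mice cannot be told apart in these values.

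**Figure D5:**
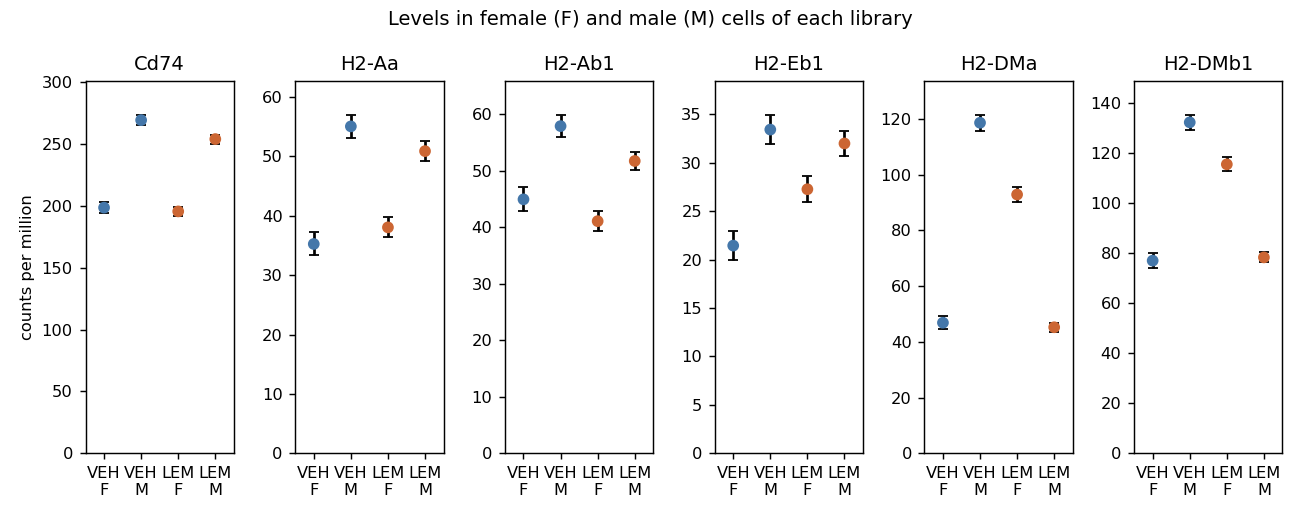
Counts per 1000000 (CPM) of 6 members in female (F) and male (M) cells of the VEH and LEM libraries, with exact 95% Poisson intervals. For *H2-DMa* the VEH male (119) and LEM female (92.8) sets are the high ones and for *H2-DMb1* likewise (132 and 115), while *Cd74*, *H2-Aa*, *H2-Ab1* and *H2-Eb1* are lower in female than in male cells of each library.

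The wider pathway was taken from a list of 33 other genes of class II regulation, processing and co-stimulation, of which 29 were detected in at least 1% of cells. None of the 29 differed by 0.5 or more between the libraries, where 2.86% of all genes did, and 18 were higher and 11 lower in LEM, with a median log2 ratio of 0.04 against 0.01 over all genes. Of this list *Ctss* (cathepsin S, which trims the invariant chain, 5230 CPM in VEH and 5389 in LEM) had the most counts. Next came *Lgmn* (legumain, an endosomal protease, 3631 and 3979 CPM) and *Ctsb* (cathepsin B, 2337 and 2538 CPM). *Ctsl* (cathepsin L, 941 and 942 CPM) and *Ifngr1* (interferon gamma receptor, 692 and 718 CPM) followed. In DAM-gated over marker-free cells 6 of the 29 were higher by 0.5 or more in each library, where 13.1% and 12% of all genes were, and 14 in VEH and 11 in LEM were lower by that much, where 30.4% and 31.5% of all genes were. Of the most abundant genes *Ctsb* was higher by 1.68 and 1.63 on the log2 scale and *Ctsl* by 1.41 and 1.37, and *Lgmn* was at -0.57 and -0.54. The 3 other class II genes *H2-DMb2*, *H2-Oa* and *H2-Ob* were among the higher, at 0.77 to 0.97, and *H2-Oa* and *H2-Ob* encode DO, an inhibitor of DM. *Cd274*, the gene of a PD-1 ligand, was higher by 2.26 and 1.81. Among the lower were *March1*, a ubiquitin ligase that removes class II from the surface, at -0.96 and -1.09, and *Icosl*, the gene of a ligand for ICOS on T cells, at -1.29 and -1.44. These 6 genes were singled out after their values were seen. Of the 14 genes of transcription and interferon gamma signalling, *Rfx5*, *Rfxap*, *Rfxank* and the NF-Y genes *Nfya*, *Nfyb* and *Nfyc* among them, none was higher by 0.5 in either library and 10 in VEH and 6 in LEM were lower, beside the 30.4% and 31.5% of all genes. *Ifngr1* had a log2 ratio of -1.09 in both.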

How the data were processed

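Single-cell 5′ libraries (10x Chromium, V2) of 1 VEH and 1 LEM pool were aligned and counted by the authors with Cell Ranger 8.0.0 on mm10, and SoupX is named for free RNA. The authors kept cells with at least 500 genes, at most 20000 counts and at most 2.5% mitochondrial counts. What the authors deposited is a table of raw molecule counts with genes in rows and cells in columns, not normalized, and whether they hold the SoupX correction is not given in the sources used here. Applied again, the filters removed 0 cells. Cell names carry the treatment, and 0 columns were left unmatched. They hold no barcodes, so barcodes shared between the libraries could not be counted.

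Counts were summed per library, gate and sex, and scaled to a set total of 1000000 (CPM). Log2 ratios of LEM over VEH have intervals from the binomial split of both counts (confidence 95%). No ratio is given where both sets hold at most 3 counts, and limits for a share of 0 are the upper ends of the Clopper-Pearson intervals. With 1 library per treatment no p-value is given, and a difference is called by a log2 ratio of at least 0.5 in size among genes detected in at least 1% of either set. Shares of cells with a member, class II-positive cells (by library, gate and number of DAM markers) and co-detection were repeated in cells thinned to 2000 counts, and shares by chain pattern, of *Ciita* cells and, for single genes, by sex were not. Gates are at least 3 of 8 choroid plexus, 2 markers of each blood cell type, 3 of 7 BAM (*Mrc1*, *Cd163*, *Lyve1*, *F13a1*, *Cbr2*, *Pf4*, *Folr2*), 3 of 8 proliferation and 3 of 6 interferon markers with at least 8 counts, applied in that order before the DAM gate. Female cells have *Xist* and no Y-linked count, male cells the reverse, and 981 VEH and 1764 LEM cells had both. Another 2682 VEH and 2996 LEM cells had neither. Of 16610 VEH and 20869 LEM chain counts, female cells held 3712 and 5871 and male cells 8551 and 9920. Scrublet (scanpy 1.11.5, expected rate 0.1) called 0 VEH and 3113 LEM cells by its automatic threshold, which had not worked, so the top 10% of scores in each library (1807 and 2402 cells) was used instead, as an alternative only.

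One microglial marker gene of the fixed list is not reported here. All members are named, from the pathway list those with a log2 ratio of LEM over VEH of at least 0.5 in size and at least 100 counts (none met this), and the 5 with the most counts, and the 10 genes most like the chains. The members and lists were chosen with earlier results of these data known. The ratios and intervals were tested on simulated counts first. These were Poisson totals per library, the spread that the intervals assume, so the test checks the calculation and not the spread between cells or mice. Alternatives were other scalings, cell sets, gates and thresholds, and those without BAM-marker cells were added after the data were seen. Python 3.11.15, numpy 2.4.6, scipy 1.17.1 and pandas 2.3.3 were used.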

Additional observations from a re-analysis of the deposited data

Results flagged for a closer look

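The LEM over VEH ratio of *H2-DMa* was 2.38 higher on the log2 scale in female than in male cells, and that of *H2-DMb1* 1.34 higher, each with ratios past 0.5 in opposite directions and counting intervals that exclude 0. Of 11055 genes with at least 100 counts in each set, 6 had a larger difference than *H2-DMa* and 36 than *H2-DMb1*. In the stretch of chromosome 17 from *H2-K1* to *H2-Eb1*, a window chosen after the values were seen, 12 of 18 genes were higher in LEM in female and lower in male cells, against 18.4% of all genes. The 12 include *H2-DMa*, *H2-DMb1*, *H2-Aa* and *H2-Eb1* and are counted by sign alone. *Brd2* is among them at 0.004 and -0.071 and *H2-K1* at 0.61 and -0.017, so the count is no support for the 2 flagged genes. *H2-Oa* differed by 1.01, *Tap1* by 0.76 and *Psmb9* by 0.75, and *H2-Ab1* by 0.03. The difference between the sexes was not tested.

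The class II chains in DAM-gated cells differed by 1.29 between female cells, where LEM was higher, and male cells, where VEH was higher. This difference was not tested either. Among DAM-gated female cells, 8 in LEM and 2 in VEH had at least 40 chain counts, and the others were at 322 CPM in both libraries. The cut at 40 uses the chain counts themselves, so this is a description and no test.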

How the results depend on the processing

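No paired analysis was possible because each treatment is 1 library, and for the same reason no replicate could be left out. Of 132 alternative values for results with a counting interval 61 stayed within that interval and 71 moved beyond it, and 11 more concern the median over members, which has none. In 12 of all 143 the sign changed, among them *H2-DMa* (-0.46, and 0.99 in female cells) and *H2-DMb1* (-0.23, and 0.58 in female cells). The cause of each move was not tested. The chain ratio of LEM over VEH (-0.14) was -0.11 as a mean over cells of counts per 10000, -0.10 without doublets, 0.066 in female cells, -0.33 without cells of other gates, 0.013 in thinned cells, -0.028 as the mean of both sexes, -0.32 with VEH state shares and -0.48 without cells with any BAM marker. Its direction therefore depends on the setting. The median over the 7 members (-0.12) was 0.14 in female cells, -0.05 as the mean of both sexes and -0.38 without BAM-marker cells. The share of all genes past 0.5 (2.86%) was 1.04% among genes in at least 10% of cells and 20.3% among all with more than 3 counts. The ratio of class II-positive shares (-0.52) was -0.041 in female cells, -0.83 in male cells and -0.72 without BAM-marker cells.

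DAM-gated over marker-free cells stayed higher under every alternative run. In VEH (4.45) the log2 ratio was 4.33 without doublets, 4.66 without cells of both sex signals, 2.74 in female and 5.42 in male cells, 4.30 in thinned cells, 4.07 and 4.84 with DAM gates of 3 and 5 markers, 4.86 with a BAM gate of 2 markers and 5.14 without BAM-marker cells. In LEM (3.60) it was 3.90 without cells of both sex signals, 3.96 in male cells, 4.07 in thinned cells, 3.11 and 4.06 with the DAM gates, 4.10 with the BAM gate and 5.02 without BAM-marker cells. The share of *H2-Aa* cells with *H2-Ab1* was 63.6% in VEH and 57.5% in LEM when thinned, and 93.2% and 89.6% in DAM-gated cells. With *H2-Eb1* it was 44.9% in VEH when thinned, and 67.5% and 63.0% in DAM-gated cells. With *Cd74* it was 87.8% and 85.3% when thinned, and 100% and 99.5% in DAM-gated cells. Depth limits *Ciita*, with 57 and 104 counts, and the smaller gates.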
